A study of Drosophila melanogaster with 12 samples.

Results

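The NPC2 family genes Npc2a to Npc2h of Drosophila melanogaster were followed in RNA from adult heads. They were found by gene symbol: probe sets were taken where the platform annotation gave a single symbol from Npc2a to Npc2h, whatever their values. This gave all 8 genes of the 10844 named on the array, in 9 of its 14010 probe sets, with 2 probe sets for Npc2h and 1 for each other gene. A probe set is a group of short oligonucleotides that together measure the transcripts of a gene, and its summary value is the Signal, a relative brightness on a linear scale. Of the 9 probe sets, 6 reached the mean Signal of 128.2 above which probe sets were tested. They stand for Npc2a, Npc2b, Npc2c, Npc2g and Npc2h.

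Heads came from females and males of the lines BG02514, BG02257 and Canton S B, with 2 arrays for each sex of each line, 12 in all. BG02514 and BG02257 are gene-trap lines with a P-element insertion, studied for the Tre1/Gr5a region, which holds a G protein-coupled receptor gene and a sugar taste receptor gene. Canton S B is the line without these insertions. The site of each insertion and the likeness of the lines elsewhere in the genome were not given in the sources used here. Per the labels, the lines were raised at the same time at 25 °C, 12 h of light a day and 70% humidity, and each array carried the RNA of heads pooled from 100 flies aged 5 to 7 days. Both BG02257 male arrays bear replicate number 1 and are called 1a and 1b. They were treated as separate samples, since the design text speaks of 2 groups of flies for each line and sex.

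NPC2 proteins are small secreted proteins with an ML domain, a fold that binds lipids. In mammals NPC2 takes cholesterol from within the lysosome and passes it to the membrane protein NPC1, and loss of either protein causes Niemann-Pick disease type C. Flies cannot make sterols and take them from food, and they have several NPC2 genes. Npc2a and Npc2b are known to act together in sterol homeostasis and ecdysteroid synthesis, and Npc2a, Npc2e and Npc2h proteins to bind components of bacterial walls, with effects on the Imd immune pathway.

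By RefSeq gene order (assembly Release 6 plus ISO1 MT), Npc2a lies on chromosome arm 2L and the other 7 genes on 3R. Npc2e, Npc2d and Npc2c are genes 964, 965 and 966 of the 4226 on that arm and follow each other directly, and so do Npc2g and Npc2h, genes 4076 and 4077. Positions in bases are left out, because no build was named for the array values.

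The differences that exceeded the spread between arrays fell on the neighbours Npc2h and Npc2g. By the brighter of its 2 probe sets, Npc2h was 2.70-fold lower in female than in male heads on average over the lines, and the dimmer probe set was not called. Npc2g was 2.11-fold lower in BG02257 than in Canton S B and 2.39-fold higher in BG02514 than in BG02257, and its lowest values were those of BG02257 females. Npc2a and Npc2b, the members tied to sterol balance, passed the test in none of the 4 comparisons between sexes and lines. A difference is called here when its adjusted p is under 0.05 in limma, from 1 model of all 12 arrays, after Benjamini-Hochberg adjustment over 8380 tested probe sets. Pools of heads mix many cell types, so less RNA per cell and fewer cells of a type cannot be told apart.

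**Figure D1:**
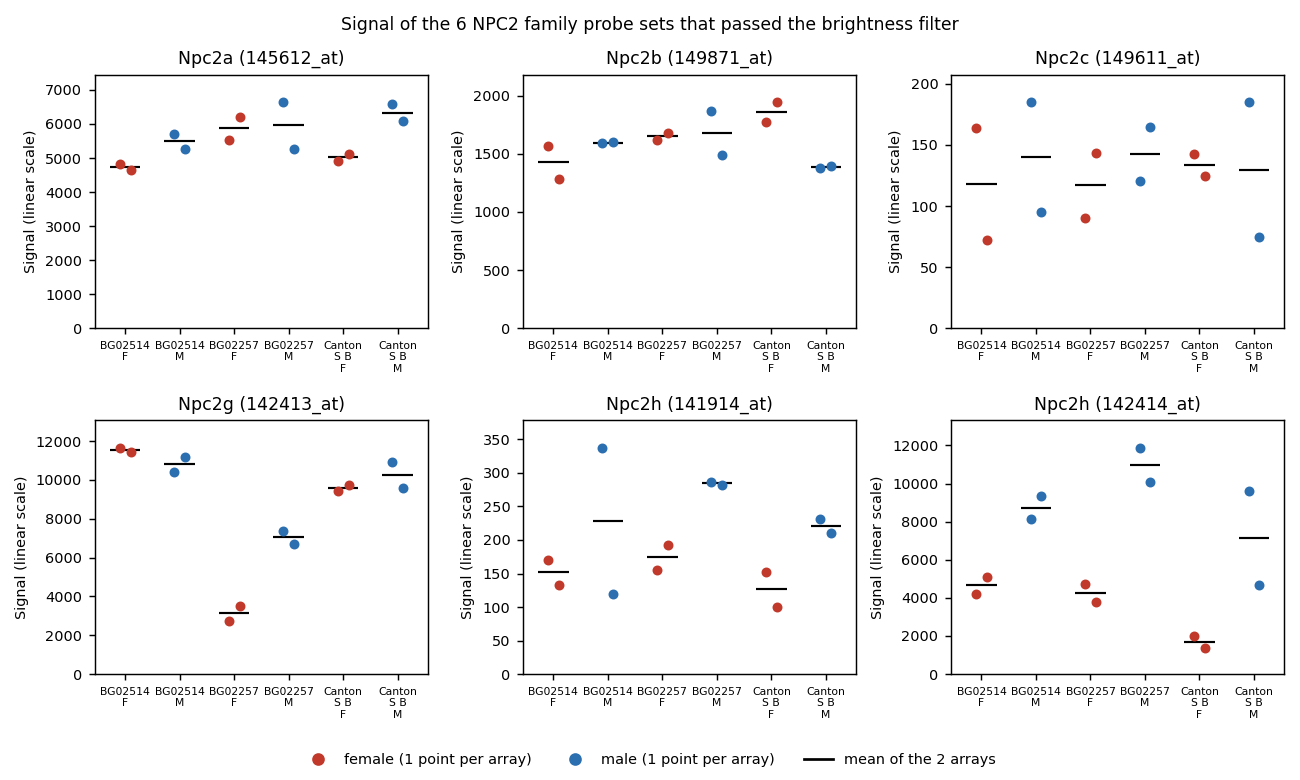
Signal (linear axis from 0) of the 6 tested NPC2 family probe sets in the 6 groups of line and sex, with 1 point per array (red female, blue male) and a bar at the mean of the 2 arrays. Npc2g sits lowest in BG02257 females (2740.3 and 3529.1), and the brighter Npc2h probe set sits lower in females than in males of each line.

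Heads of the kind labelled should hold eye and nerve cells. Of 8 listed photoreceptor markers, 3 had a probe set with a single symbol (Arr1, Arr2 and trp). Of 5 neuronal ones, 4 had such a probe set (elav, nSyb, para and Rdl). All of these passed the brightness filter, and the other listed markers were not read. None of these 7 was called in any comparison. Array medians of Signal were 182.9 to 206.1. Across tested probe sets, replicates correlated at Spearman's rho of 0.910 to 0.955, and the lowest value for any pair of arrays was 0.894.

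Npc2h was followed by 2 probe sets, of which 142414_at was the brighter. Its Signal in BG02514 was 4209.5 and 5100.9 in females, against 8148.9 and 9329.8 in males. In BG02257 it was 4733.6 and 3770.9 in females, against 11892.9 and 10083.6 in males. In Canton S B it was 1997.2 and 1380.9 in females, against 9612.6 and 4675.5 in males. Females therefore lay below males without overlap in every line, as did 2.54% of all tested probe sets. Over the 3 lines the mean Signal was 3532 ± 1510 in females, against 8957 ± 2427 in males (SD, n = 6 each). The log2 difference was −1.43 ± 0.17 (SE), with a limma adjusted p = 0.00208. Of the 6 tested family probe sets, 2 were called between the sexes, both lower in females. Over all tested probe sets 2.84% were called, and 0.883% were called as lower in females. The split between directions depends on scaling, with 164 called higher and 74 lower as deposited, and 98 and 78 after quantile normalization. Npc2h was called lower under both.

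The sex difference of Npc2h was −0.91 ± 0.30 (SE) on the log2 scale in BG02514, −1.37 ± 0.30 in BG02257 and −2.01 ± 0.30 in Canton S B. Only the last was called within its line (limma adjusted p = 0.022), where 0.406% of probe sets were. That call was lost without Canton S B male 1 (−1.49, adjusted p = 0.0926) or female 2 (−1.75, adjusted p = 0.0845). It was also lost without BG02514 male 1 (adjusted p = 0.057) or male 2 (adjusted p = 0.0565), both at −2.01, without the variance trend (adjusted p = 0.0869) and in the two-way model on linear Signal (adjusted p = 0.429). Whether the sex difference depended on line was tested directly, and the interaction was not called (F = 3.41, adjusted p = 1). The difference between BG02514 and Canton S B in the sex difference was 1.10, with a 95% interval from 0.17 to 2.03 before adjustment for many tests.

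Canton S B females held the lowest Npc2h Signals of the study. From low to high, the group means were 1689 in Canton S B females, 4252 in BG02257 females, 4655 in BG02514 females, 7144 in Canton S B males, 8739 in BG02514 males and 10988 in BG02257 males. The first and the second of these groups did not overlap. BG02257 and BG02514 females overlapped each other, and the wide pair of Canton S B males overlapped both and also BG02514 males. Averaged over the sexes, Npc2h differed by 0.93 ± 0.21 (SE) on the log2 scale between BG02514 and Canton S B (limma adjusted p = 0.171) and by 1.03 ± 0.21 between BG02257 and Canton S B (adjusted p = 0.181). Neither was called, although BG02257 lay above Canton S B without overlap in both sexes, as did 2.24% of all tested probe sets. Without Canton S B male 1, the highest array of its line, these values were 1.19 (adjusted p = 0.0263) and 1.29 (adjusted p = 0.0294), both past the threshold. The 2 comparisons share the Canton S B arrays and are not independent. Between the insertion lines the difference was −0.10, with a 95% interval from −0.56 to 0.37.

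The dimmer Npc2h probe set, 141914_at, gave 170.6 and 133.4 in BG02514 females, against 338.0 and 119.4 in BG02514 males. BG02257 females had 155.9 and 192.1, against 287.1 and 282.1 in males, and Canton S B females had 152.7 and 99.8, against 230.6 and 210.1 in males. Females lay below males without overlap in BG02257 and Canton S B but not in BG02514, whose males held both the highest male value and the lowest. Neither separation was called within its line (limma adjusted p = 0.676 and 0.747), and the share of all probe sets that separate so was not counted. The log2 difference of −0.66 ± 0.26 (SE) pointed the same way as that of the brighter probe set and was not called (limma adjusted p = 0.253). BG02257 lay above Canton S B without overlap in both sexes, as did 2.24% of all tested probe sets. That difference, 0.43, was not called (limma adjusted p = 0.999). Over the 12 arrays the 2 Npc2h probe sets correlated at Pearson's r of 0.66, as a description. Which Npc2h transcripts each one measures was not given in the sources used here.

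Npc2g, an NPC2 gene with less known about its role, had Signals of 11667.4 and 11460.7 in BG02514 females and 10397.7 and 11202.5 in BG02514 males. BG02257 had 2740.3 and 3529.1 in females, against 7383.7 and 6709.6 in males. Canton S B had 9415.3 and 9740.1 in females, against 10911.1 and 9575.1 in males. Every BG02257 array was below every array of both other lines. The sexes overlapped in Canton S B, and so did BG02514 and Canton S B males. In both sexes taken apart, 2.48% of all tested probe sets were below Canton S B in BG02257 without overlap, and 4.95% were above BG02257 in BG02514. Averaged over the sexes, BG02257 was lower than Canton S B, at −1.08 ± 0.11 on the log2 scale (SE, limma adjusted p = 0.0031). Npc2g was the sole family probe set called there among 6, where 0.0955% of all tested probe sets were called and 0.0835% were called lower. The call held in each of the 12 fits that left out 1 array, with adjusted p of at most 0.0188. It was lost when only the 8 arrays of these lines were fitted (adjusted p = 0.0548), without the variance trend (adjusted p = 0.0616) and in the two-way model on linear Signal (adjusted p = 0.0504).

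BG02514 had more Npc2g RNA than BG02257, by 1.26 ± 0.11 (SE) on the log2 scale (limma adjusted p = 0.00114), and this was again the sole call among the 6 family probe sets, against 0.334% of all probe sets in either direction and 0.179% higher in BG02514. Adjusted p stayed at or under 0.0199 in all fits without 1 array and under the other settings tried. Between BG02514 and Canton S B, Npc2g differed by 0.18, with a 95% interval from −0.06 to 0.41 (adjusted p = 0.759). In that comparison no family probe set was called (0 of 6, with 1 at an unadjusted level of 0.05, the brighter one of Npc2h), against 0.179% of all probe sets called and 8.02% at the unadjusted level. The two-way model on linear Signal likewise called 0 of the 6.

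The Npc2g difference between BG02257 and Canton S B was also taken in each sex. BG02257 females were below Canton S B females by −1.62 ± 0.15 on the log2 scale (SE, limma adjusted p = 0.00289), a fold of 3.08, and BG02257 males below Canton S B males by −0.54 ± 0.15 (adjusted p = 0.762). In the females 0.0239% of probe sets were called, and the call of Npc2g was lost without BG02257 female 1 (−1.44, adjusted p = 0.0544), without the variance trend (adjusted p = 0.0745) and in the two-way model (adjusted p = 0.1). Within BG02257 the sex difference was −1.18 ± 0.15 (adjusted p = 0.00969), where 0.143% of probe sets were called. It was −0.996 without BG02257 female 1 (adjusted p = 0.115) and −1.18 with both male arrays averaged as 1 sample (adjusted p = 0.0573). Adjusted p was 0.0905 without the variance trend and 0.175 in the two-way model. In BG02514 and Canton S B the sex difference was 0.10 ± 0.15 and −0.09 ± 0.15. Npc2g had the highest interaction F of the 8380 probe sets (20.7) and was not called (adjusted p = 1), and its sex difference in BG02257 minus that in Canton S B was −1.08 ± 0.21 (SE, limma adjusted p = 0.996). No probe set was (0 called, 235 at an unadjusted level of 0.05, and 0 called in the two-way model on linear Signal).

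Averaged over the lines, Npc2g was lower in females by −0.39 ± 0.09 (SE, limma adjusted p = 0.0389). The mean Signal was 8092 ± 3951 in females, against 9363 ± 1890 in males (SD, n = 6 each), and the range in females, 2740.3 to 11667.4, enclosed that in males, 6709.6 to 11202.5. This average rests on BG02257, given the differences in the other lines just stated. It passed the threshold in 3 of 12 fits without 1 array, those without BG02257 female 2, BG02257 male 1b or Canton S B male 2. In the other 9 the difference was −0.33 to −0.41, with adjusted p from 0.0711 to 0.121. With the replicate number as a block it was −0.40 (adjusted p = 0.066). The call was also lost with no brightness filter (adjusted p = 0.0675), with BG02257 males averaged (0.0641), without the variance trend (0.129) and in the two-way model (0.154).

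**Figure D2:**
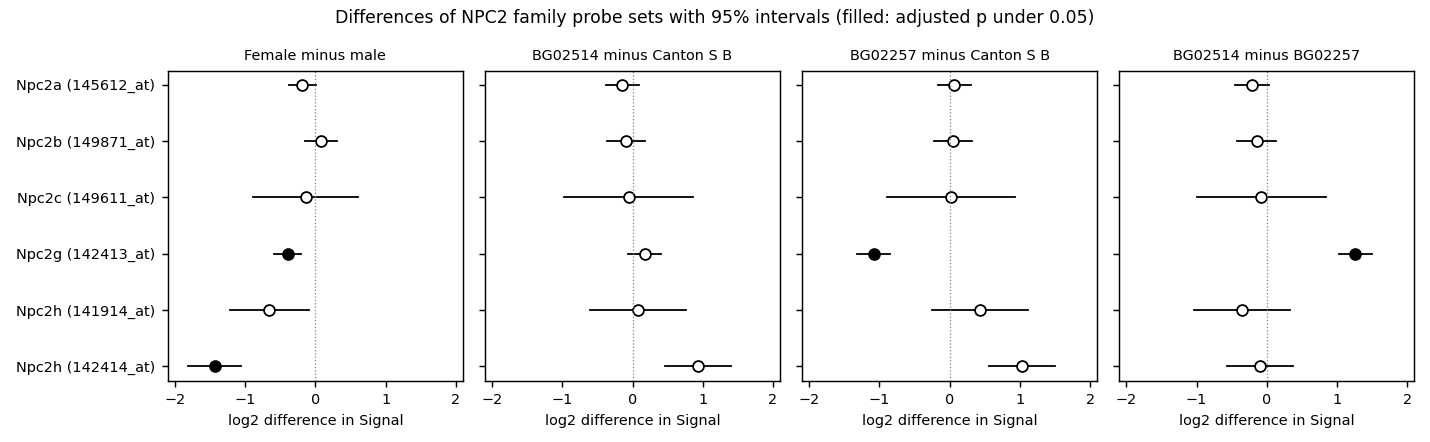
log2 differences in Signal of the 6 tested NPC2 family probe sets in 4 comparisons, as points with 95% intervals before adjustment for many tests, filled where the adjusted p was under 0.05. The filled points are Npc2g and the brighter Npc2h probe set in females against males, and Npc2g in both comparisons that involve BG02257.

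Npc2g and Npc2h lie side by side but did not move together. Over the 12 arrays their log2 Signals had a Pearson's r of 0.05, given as a description. The log2 ratio of Npc2g to Npc2h within an array was −0.79 to −0.10 in the 4 BG02257 arrays, 0.26 to 1.47 in BG02514 and 0.18 to 2.82 in Canton S B. BG02257 did not overlap with either of the other lines, while the ratios of BG02514 and Canton S B overlapped. The ratio compares arrays and says nothing of which gene has more RNA, since probe sets differ in their brightness per molecule. Relative to Canton S B, BG02257 females combined the lower Npc2g Signals with Npc2h Signals 2.54-fold higher (adjusted p = 0.464 for Npc2h, not called).

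**Figure D3:**
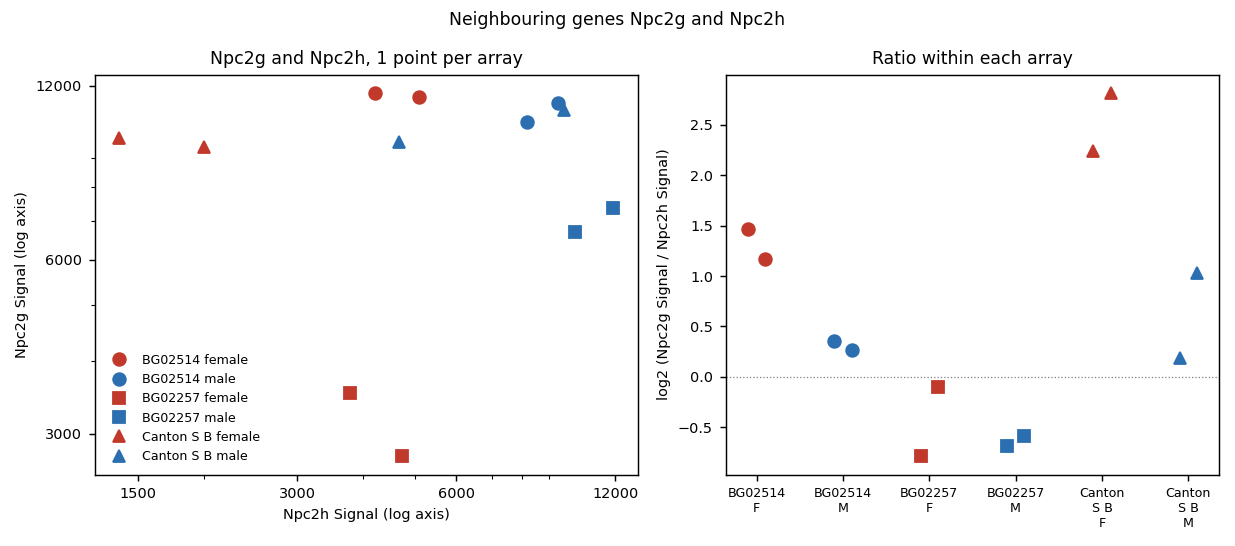
Npc2g Signal against Npc2h Signal (probe set 142414_at, both axes logarithmic) and the log2 ratio of Npc2g to Npc2h within each array, by line and sex, with 1 point per array. All 4 BG02257 arrays have ratios under 0, and the 8 arrays of BG02514 and Canton S B have ratios above 0.

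Npc2a, the member best known for a role like that of mammalian NPC2, varied little. In BG02514 its Signal was 4815.2 and 4641.7 in females, against 5704.3 and 5269.4 in males. In BG02257 it was 5540.0 and 6216.9 in females, against 6654.7 and 5270.5 in males. In Canton S B it was 4919.2 and 5130.4 in females, against 6573.0 and 6084.9 in males. Females lay below males without overlap in BG02514 and Canton S B, and the sexes overlapped in BG02257. Neither separation was called within its line (limma adjusted p = 0.849 and 0.643). The share of all probe sets that separate so was not counted. From the lowest to the highest array the level spanned 1.43-fold. The sex difference was −0.19 on the log2 scale, with a 95% interval from −0.38 to 0.01 (limma adjusted p = 0.347). For BG02514 and BG02257 against Canton S B the intervals were −0.38 to 0.09 and −0.17 to 0.30. BG02514 lay below Canton S B without overlap in both sexes, and the difference of −0.15 was not called (limma adjusted p = 0.814). How many of all probe sets do so was not counted either.

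Npc2b, the partner of Npc2a in sterol homeostasis, spanned 1.52-fold over the arrays. In BG02514 its Signal was 1570.8 and 1281.3 in females, against 1588.8 and 1603.0 in males. BG02257 had 1620.7 and 1682.8 in females, against 1872.5 and 1491.9 in males. Canton S B had 1775.9 and 1948.1 in females, against 1381.5 and 1399.1 in males. Females were above males in Canton S B, below them in BG02514 and within the male values in BG02257. No sex difference was called within Canton S B or BG02514 (limma adjusted p = 0.581 and 0.914). How many of all probe sets separate by sex within a line was not counted. The sex difference was 0.42 ± 0.18 (SE) in Canton S B and −0.17 ± 0.18 in BG02514, and the interaction was not called (F = 3.01, limma adjusted p = 1). Over all lines the 95% interval ran from −0.15 to 0.30. Against Canton S B it ran from −0.37 to 0.18 in BG02514 and from −0.23 to 0.32 in BG02257.

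The remaining 4 genes were at the low end of the Signal scale. Npc2c, with a mean of 130.3, lay just above the brightness filter, and 6 of its 12 arrays reached 128.2. Its Signals were 72.4 to 163.9 in females, with a median of 133.7, and 74.4 to 185.4 in males, with a median of 142.8. Replicates of a group differed by up to 1.32 on the log2 scale, and no difference was called. The 95% interval of the sex difference, −0.88 to 0.61, is wider than those of Npc2a, Npc2b and Npc2g.

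Npc2d, Npc2e and Npc2f, with means of 37.4, 36.4 and 19.5, had no array at the filter value and were not tested. Npc2d had 10.4 to 16.6 in the 4 BG02514 arrays. BG02257 had 14.7 and 35.4 in females, against 119.3 and 78.3 in males, and the 4 Canton S B arrays had 9.9 to 66.0. The BG02257 males held the highest Npc2d values, 78.3 at the least against 66.0 at the most elsewhere. That gap was seen after the fact and at Signals under the filter. How many of all probe sets have 1 group on top was not counted. Npc2e had 7.0 to 59.6 in females, with a median of 15.7, and 17.8 to 77.5 in males, with a median of 46.1. Npc2f had 5.8 to 48.4 in females, with a median of 19.8, and 5.6 to 39.3 in males, with a median of 15.3. With no brightness filter, none of the 3 was called in any of the 4 comparisons over 13966 probe sets. The smallest adjusted p, 0.375 in limma, was that of Npc2d between BG02514 and BG02257 (−1.94 ± 0.60, SE). Detection calls were not given in the sources used here, so whether these genes were expressed in heads was not determined.

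**Figure D4:**
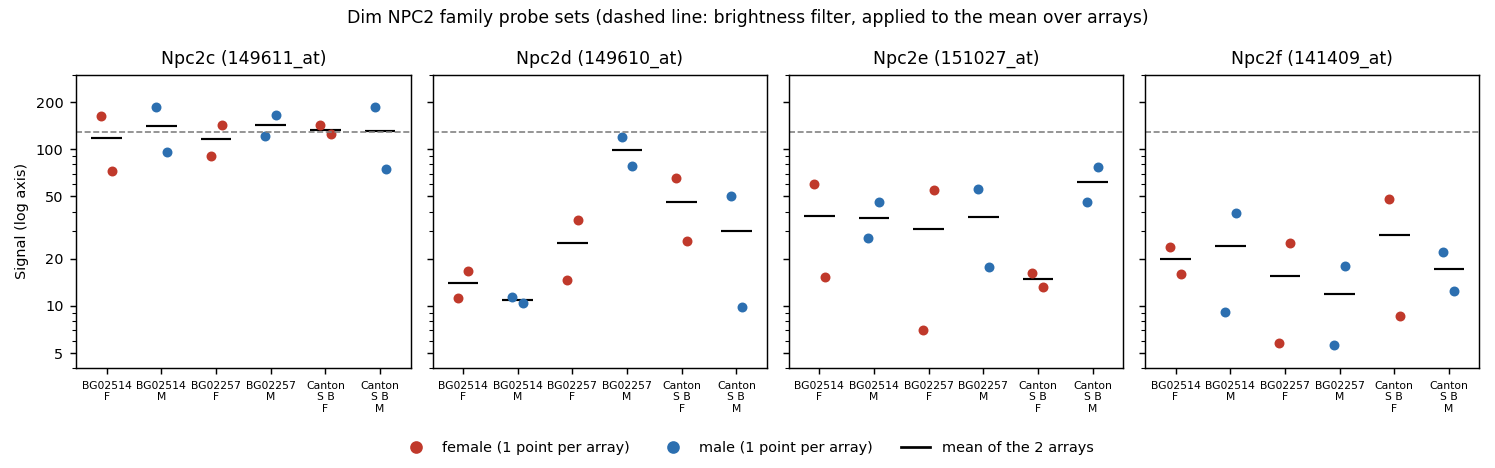
Signal (log axis) of Npc2c, Npc2d, Npc2e and Npc2f in the 6 groups of line and sex, with 1 point per array, a bar at the mean and a dashed line at the brightness filter of 128.2. Npc2c straddles the line, and all arrays of the other 3 genes lie under it.

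In no comparison did all 6 tested family probe sets lie on the same side of 0. Between the sexes 5 of 6 probe sets were below 0, with a median log2 difference of −0.29 against 0.00086 for all tested probe sets. The other 3 comparisons gave medians of 0.01 for BG02514 against Canton S B, 0.06 for BG02257 against Canton S B and −0.12 for BG02514 against BG02257. In these, in the same order, 3, 5 and 1 of the 6 family probe sets were above 0. All tested probe sets had a median of −0.01 in each comparison of lines.

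Genes that act with the family were read from lists. Npc1a, the partner that accepts sterol from NPC2 proteins, had Signals of 1023.7 and 991.9 in BG02514 females, 990.8 and 1267.7 in BG02514 males, 1096.1 and 1302.6 in BG02257 females and 1178.1 and 1314.7 in BG02257 males. In Canton S B it had 1437.9 and 1265.6 in females and 1278.9 and 1449.5 in males. It was not called, the furthest value from 0 being −0.35 ± 0.13 (SE) for BG02514 against Canton S B (limma adjusted p = 0.501). Npc1b was not analysed here. In the list of sterol uptake, transport and sensing, which includes Npc1a, 12 of 16 genes were tested and 0 were called in any comparison. At an unadjusted level of 0.05 there were 2 between the sexes, 2 for BG02514 against Canton S B, 0 for BG02257 against Canton S B and 1 between the insertion lines. Over all tested probe sets the unadjusted shares were 15.0%, 8.02%, 4.01% and 9.99% in these comparisons. The medians were −0.01, 0.02, 0.04 and −0.03.

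Of 16 listed genes of ecdysteroid synthesis and response, 7 were tested. Of these Cyp18a1, which encodes an enzyme that breaks down ecdysone, had more RNA in females, by 1.02 ± 0.15 (SE, limma adjusted p = 0.00472). The other 6 were above 0 and not called. Of 29 listed genes of the Imd pathway and its antibacterial targets, 9 were tested. Among these PGRP-LE, an intracellular sensor of bacterial peptidoglycan, was higher in females by 0.55 ± 0.12 (adjusted p = 0.0358), opposite in direction to Npc2h. Over all tested probe sets 2.84% were called between the sexes. At an unadjusted level of 0.05, 2 ecdysteroid genes and 1 Imd gene passed between the sexes, against 15.0% of all tested probe sets. No gene of these 2 lists was called between lines. Unadjusted, 0 ecdysteroid genes and 3 Imd genes passed a level of 0.05 for BG02514 against Canton S B, 2 and 2 for BG02257 against Canton S B, and 0 and 0 between the insertion lines.

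For each tested member, the 3 genes with the most similar pattern were taken by Pearson's r of log2 Signal over the 12 arrays, among 6773 other genes. These values describe arrays that share lines and sexes and carry no test. The genes were chosen on the same arrays, so a difference in the direction of their member follows in part from the choice. Npc2g was most like Mccc2, a subunit of the enzyme that breaks down leucine (r = 0.94), Hacd2, of very-long-chain fatty acid elongation (r = 0.88), and CG30184 (r = 0.86). For Mccc2 r was 0.98 within females and 0.49 within males, for Hacd2 0.92 and 0.65, and for CG30184 0.85 and 0.86. None of the 3 was called between BG02257 and Canton S B, where their differences were −0.46, −0.27 and −0.53.

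The brighter Npc2h probe set was most like Obp99b, an odorant-binding protein gene (r = 0.93), CG15522 (r = 0.91) and Pss, a phosphatidylserine synthase (r = 0.91). For Obp99b r was 0.93 within females and 0.89 within males, for CG15522 0.91 and 0.33, and for Pss 0.76 and 0.84. Obp99b was lower in females by −4.48 ± 0.36 (SE, limma adjusted p = 8.17e-05) and differed by 1.08 in BG02514 and by 1.23 in BG02257, each against Canton S B, neither called. Both Npc2h and Obp99b had their lowest Signals in the Canton S B females. Pss was lower in females by −0.56 ± 0.13 (adjusted p = 0.0401), and CG15522 had −0.60 ± 0.14 (adjusted p = 0.0532). Since all 3 genes were chosen for likeness to Npc2h, these p-values are no separate evidence of a shared sex difference. The dimmer Npc2h probe set was most like ttm50, of mitochondrial protein import (r = 0.88), CG3328 (r = 0.87) and Mulk, a lipid kinase gene (r = 0.84). It shared no gene among its 3 with the brighter one.

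**Figure D5:**
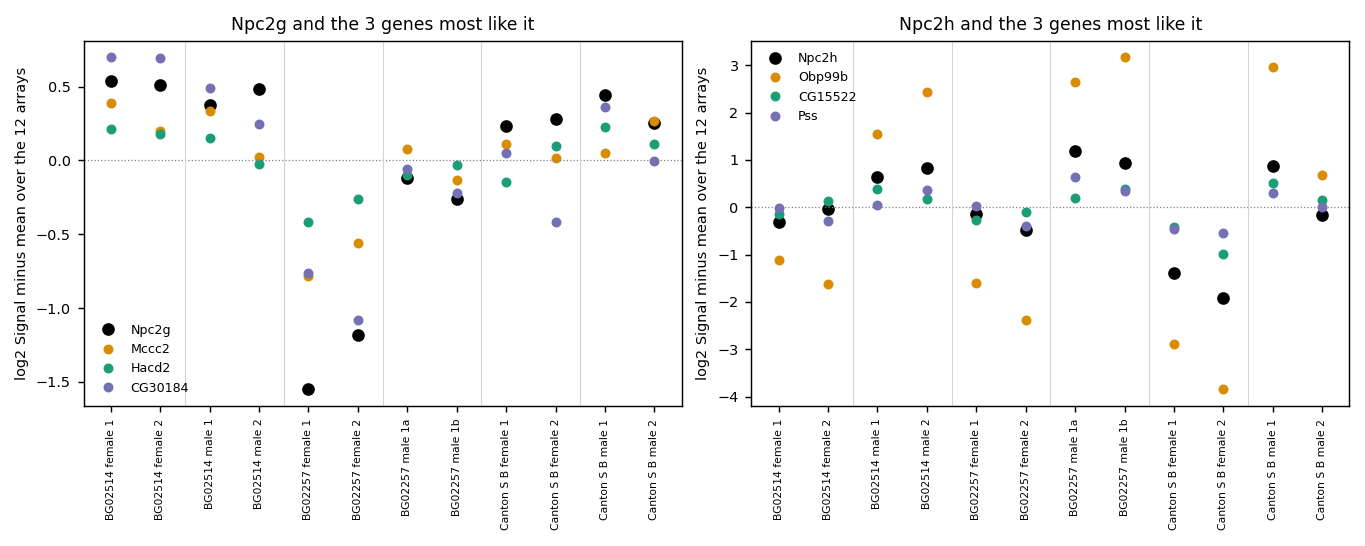
log2 Signal minus its mean over the 12 arrays for Npc2g (black) and the 3 genes most like it, and for Npc2h (black, probe set 142414_at) and the 3 genes most like it, with 1 point per gene and array. Npc2g and its 3 like genes are lowest in the BG02257 female arrays, and Npc2h and its 3 like genes in the Canton S B female arrays. The like genes were chosen on these same arrays.

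Npc2a was most like the proteasome subunit gene Prosbeta6 (r = 0.89), inc (r = 0.87), a Cullin-3 adaptor known for its role in sleep, and Obp69a (r = 0.86), an odorant-binding protein gene. Npc2b was most like CG6766 (r = 0.88), CG5783 and CG7741 (r = 0.83 each). Npc2c was most like Ldaf1 (r = 0.84), of lipid droplet assembly, CG6583 (r = 0.84) and CG15147 (r = 0.84). None of these 9 genes was called in any of the 4 comparisons.

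The nearest tested genes on either side of each member, 2 a side and 20 in all, gave 1 call among 80 tests, with 14 at an unadjusted level of 0.05, where 9.26% of the tests of all probe sets in the 4 comparisons were. The call was that of Got2, a mitochondrial aminotransferase gene next to Npc2a, lower in females by −0.55 ± 0.09 (SE, limma adjusted p = 0.0098). Over all tested probe sets 2.84% were called between the sexes. For the lines the shares were 0.179% for BG02514 and 0.0955% for BG02257 against Canton S B, and 0.334% between the insertion lines. Beside Npc2g and Npc2h, the differences between BG02257 and Canton S B were 0.06 for CG2246, −0.06 for Spn100A, −0.08 for the transcription factor gene zfh1 and −0.01 for wts, the Warts kinase of Hippo signalling. Counted in genes from Npc2g along the arm, these lie at −24, −9, 3 and 5, in that order. Their 95% intervals were −0.22 to 0.34, −0.86 to 0.73, −0.57 to 0.40 and −0.70 to 0.69. None of these differences was called (limma adjusted p = 0.999 each). The lower ends of the intervals ran from −0.22 for CG2246 to −0.86 for Spn100A, and that of Npc2g was −1.32. A cause of the lower Npc2g level that also acts on genes nearby was not tested. In BG02514 against Canton S B, zfh1 had −0.81 ± 0.22 (adjusted p = 0.277) and wts −0.90 ± 0.32 (adjusted p = 0.455), neither called.

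Marker genes of other tissues were read beside these results. Of 8 fat body markers, all tested, Yp1, Yp2, Yp3 and fit were called higher in females, and the summed Signal of all 8 was 237196 to 283378 in females and 23040 to 44514 in males. The other 4 had sex differences of −1.18 to −0.01, none called. Between BG02257 and Canton S B the fat body list had a median of 0.06 and a range of −0.59 to 0.85, with none called. Gut enzymes had a summed Signal of 3182 to 6203 in BG02257 arrays and 2125 to 7564 in Canton S B arrays, with 9 of 10 markers tested, a median of 0.45 and none called. Between BG02514 and Canton S B 9 of 9 gut markers were above 0, with a median of 0.88 and none called, and a summed Signal of 5394 to 8632 in BG02514 arrays. Between the sexes 6 of 9 gut markers were above 0, with a median of 0.45, while LManII was called lower in females. The gut sums were 2125 to 8632 in females and 3182 to 7778 in males. Hemocyte markers, 8 of 8 tested, summed to 4622 to 10297 in females and 4537 to 6654 in males, with 8 of 8 sex differences above 0, a median of 0.32 and none called. Antennal support cell markers, 5 of 5 tested, had 0 of 5 above 0 between BG02514 and BG02257, with a median of −0.45. Among these markers Os-C was called lower in BG02514 (−0.78 ± 0.12, SE, limma adjusted p = 0.0292). Their summed Signal was 41541 to 47934 in BG02514 arrays, 59825 to 69673 in BG02257 arrays and 52454 to 64207 in Canton S B arrays. Between BG02514 and Canton S B 0 of 5 were above 0, with a median of −0.41 and none called. Of the testis and accessory gland markers 5 of 7 were under the brightness filter, Acp26Aa and betaTub85D among them, and of the ovary markers 3 of 5, among them vas and osk. The part of these tissues in the NPC2 differences was not tested.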

How the data were processed

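Head RNA was measured on 12 Affymetrix arrays. Each deposited value is a Signal intensity, the linear measure of Affymetrix Microarray Suite 5.0, per the labels. GCOS is named in the submitters' processing notes. Every array had a trimmed mean of 500.1 with 2% of each tail left out, so the authors had scaled the arrays already. Background settings were not given in the sources used here.

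Of 14010 probe sets, 44 controls were left out, and 12443 of the others had a single gene symbol, updated by gene identifier through the RefSeq table. Arrays were set to an equal trimmed mean and log2 was taken without a pseudocount. Probe sets with a mean Signal at or above the 40th percentile, 128.2, were tested (8380). All 12 arrays entered 1 limma 3.58.1 model (R 4.3.3) of 6 group means with a variance trend, as in the authors' two-way design per the labels, with 6 residual and 5.09 prior degrees of freedom. Tests were two-sided with Benjamini-Hochberg adjustment, and the model was tested on simulated data. P-values measure the spread between arrays of pooled flies. The number of arrays limits the precision.

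Named genes are all family members, called genes of the 3 lists related to the family, Npc1a, the 3 genes most like each tested member and the 2 nearest tested genes on either side; the brightest probe set stands for a gene that is no member. Tissue markers were fixed as lists and are named where called, as checks of the head label, or as examples under the filter. Members and lists were chosen with earlier results of these data known. Same-numbered replicates of different groups were checked for shared deviations: of 10 pairs of groups 1 had a correlation over 0.1 (range −0.24 to 0.27), so numbers were not taken as pairing. The BG02257 male arrays had the same value at 9 of 14010 probe sets and were kept as 2 samples. Other settings tried were quantile normalization, no further scaling, a pseudocount of 16, other brightness filters, fewer arrays, a replicate block, averaged BG02257 males, no variance trend and the two-way model on linear Signal.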

Additional observations from a re-analysis of the deposited data

Results flagged for a closer look

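In 45 checks for a single distant array (9 probe sets, each over the arrays of a sex or of a line), 2 arrays stood far from the others of their set, where chance gives about 2.25. For Npc2b, the Signal of BG02514 female 2 was 1281.3, and the other 3 BG02514 arrays had 1570.8 to 1603.0. For Npc2d, the same array had 16.6, against 10.4 to 11.4 in the other 3, all far under the brightness filter. Neither probe set was called in a comparison.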

How the results depend on the processing

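Counts of called probe sets moved with the setting more than the values of Npc2g and Npc2h did. Females against males had 238 calls, and 145 with no brightness filter, 99 without the variance trend and 103 in the two-way model on linear Signal. BG02514 against Canton S B had 15, and 5 and 3 under the last 2 of these. BG02257 against Canton S B had 8, and 1 with the compared groups alone, 2 with a replicate block, 3 with the BG02257 male arrays averaged, 1 without the trend and 1 in the two-way model. BG02514 against BG02257 had 28, and 16 with the replicate block, 12 with the male arrays averaged, 9 without the trend and 3 in the two-way model. Leaving out 1 array gave 116 to 299, 4 to 20, 2 to 24 and 2 to 90 calls in these comparisons, and 0 to 9 for the interaction, the 9 arising without BG02257 male 1b. The cause of these shifts was not tested. The replicate block ended the call of Npc2g between the sexes and no other call of a family member.

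The sex difference of Npc2h held in all 12 fits without 1 array (−1.26 to −1.61) and was not called in the two-way model (adjusted p = 0.063). None of the 7 called values of family probe sets changed sign. Sign changes were limited to 27 values not called, most of them of the dim Npc2c. They included −0.046 for Npc2g in BG02514 against Canton S B males after quantile normalization, and for Npc2c −0.13 (BG02257 against Canton S B) and 0.074 (BG02514 against BG02257) with the replicate block and −1.95 in Signal (BG02257 against Canton S B) in the two-way model. Without 1 array, Npc2c ranged from −0.36 to 0.083 between the sexes, −0.39 to 0.27 for BG02514 and −0.31 to 0.35 for BG02257 against Canton S B, and −0.37 to 0.22 between the insertion lines. The dimmer Npc2h probe set ranged from −0.30 to 0.45 for BG02514 against Canton S B and −0.73 to 0.025 between the insertion lines. For BG02257 against Canton S B, Npc2a ranged from −0.019 to 0.15 and Npc2b from −0.035 to 0.13. In Canton S B the sex difference of Npc2g ranged from −0.19 to 0.00019, and for BG02514 against Canton S B males Npc2g ranged from −0.016 to 0.17 and the brighter Npc2h probe set from −0.14 to 0.90.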
